A study of Rattus norvegicus with 18 samples.

Results

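The genes described here are the Wnt ligands, the frizzled receptors, the secreted antagonists of the Sfrp, Dkk and Wif families, and the intracellular genes Axin2, Lef1 and Tcf7, in rat kidney. They were taken by gene name: every gene named Wnt, Fzd, Sfrp or Dkk followed by a number, plus Wif1, Axin2, Lef1 and Tcf7, which gave 39 of the 32116 genes listed (19 ligands, 9 receptors, 8 antagonists and 3 intracellular genes). Kidney RNA was sequenced in 18 libraries, 6 in each of 3 groups. NC rats had no treatment. CKD rats had a daily adenine dose of 100 mg per kg, and SZ rats had that adenine dose plus a daily SZ-A dose of 300 mg per kg. Adenine is a common means of producing tubular injury in rodents. The sources used here do not give the strain, the age, the length of treatment or the nature of SZ-A. The labels do not say that each library came from a different animal, so every p-value measures only how these libraries vary, and that variation may be technical.

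Wnt proteins are secreted, lipid-modified signals that bind frizzled receptors. With the co-receptors Lrp5 and Lrp6 they stop the destruction of beta-catenin, which then works with TCF and LEF proteins on target genes such as Axin2, itself a scaffold that limits the signal. Other Wnts act through Ror and Ryk receptors or the planar polarity branch without beta-catenin. Sfrp and Wif proteins capture Wnts outside the cell, and most Dkk proteins act on Lrp5 and Lrp6. In kidney the pathway shapes the developing nephron and collecting duct, is quiet in most adult tubules, and is known to be engaged again in injury and fibrosis.

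All values are FPKM, a level per gene length and per library size, as deposited. Reads recovered from the FPKM steps came to between 15354358 and 18532375 per library, and a value of 0 at such depth allows up to 3 reads. Libraries CKD 2, CKD 5 and SZ 3 stood apart: their log2 values followed gene length with slopes of -0.21, -0.31 and -0.25 per doubling of length, against -0.10 to 0.11 in the other 15. Results that passed or ceased to pass without these 3 libraries are given both ways. Mitochondrial reads were on average 19.4% of NC, 10.3% of CKD and 14.0% of SZ reads, and the deposited scaling was not to plain totals. Rescaling to TPM moved the median log2 fold change of all genes in CKD against NC from -0.040 to 0.37, and plain totals moved it to 0.25, so a small fall is a fall relative to the deposited centre.

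The start-site sequences of 5 of these genes show the setting in which beta-catenin and TCF proteins are thought to act. TCF and LEF factors bind near the letters CTTTGA or CTTTGT, and Axin2 is the textbook direct target. Tcf7 and Lef1 are shown as the factors themselves, and Sfrp5 and Sfrp2 as antagonists whose levels in CKD lay on opposite sides of NC. Each sequence is the 250 bases before the RefSeq start in build GRCr8, 5′ to 3′ on the gene's strand. Capitals mark CTTTGA or CTTTGT on either strand, and matches of these 2 motifs can share at most 1 end base.
Axin2 (chr10:94398535-94398784, plus strand): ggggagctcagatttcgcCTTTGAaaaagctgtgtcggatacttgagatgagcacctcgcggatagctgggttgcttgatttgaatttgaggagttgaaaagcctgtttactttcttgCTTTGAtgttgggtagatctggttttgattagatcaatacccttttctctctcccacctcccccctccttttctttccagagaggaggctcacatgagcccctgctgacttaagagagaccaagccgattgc
Tcf7 (chr10:36954280-36954529, minus strand): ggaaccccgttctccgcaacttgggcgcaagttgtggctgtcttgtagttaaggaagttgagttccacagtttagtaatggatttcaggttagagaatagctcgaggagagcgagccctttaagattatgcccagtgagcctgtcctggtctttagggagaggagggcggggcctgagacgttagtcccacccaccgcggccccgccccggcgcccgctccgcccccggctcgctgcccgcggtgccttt
Lef1 (chr2:222340463-222340712, plus strand): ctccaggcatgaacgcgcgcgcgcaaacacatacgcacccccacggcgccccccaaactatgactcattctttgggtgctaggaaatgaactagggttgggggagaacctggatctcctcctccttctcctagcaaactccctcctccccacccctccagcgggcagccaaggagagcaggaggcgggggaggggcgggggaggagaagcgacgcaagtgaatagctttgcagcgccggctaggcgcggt
Sfrp5 (chr1:250960513-250960762, minus strand): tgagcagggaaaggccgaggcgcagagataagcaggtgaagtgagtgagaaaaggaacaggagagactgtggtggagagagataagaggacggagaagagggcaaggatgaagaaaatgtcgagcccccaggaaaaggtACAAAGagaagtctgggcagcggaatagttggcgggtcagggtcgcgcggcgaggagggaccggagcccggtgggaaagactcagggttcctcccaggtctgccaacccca
Sfrp2 (chr2:171387286-171387535, plus strand): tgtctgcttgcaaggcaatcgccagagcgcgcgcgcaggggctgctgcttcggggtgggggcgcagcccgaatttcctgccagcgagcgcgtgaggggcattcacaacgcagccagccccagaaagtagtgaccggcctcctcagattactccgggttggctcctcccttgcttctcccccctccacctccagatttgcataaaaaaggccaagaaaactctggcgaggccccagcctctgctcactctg
The Axin2 window held CTTTGA 2 times, 232 and 132 bases before the start, both on the gene's strand. The Sfrp5 window held CTTTGT 1 time, on the opposite strand and 111 bases before the start, where it reads ACAAAG. The windows of Tcf7, Lef1 and Sfrp2 held neither. Of the 33469 windows of the table, 13.9% held CTTTGA, 16.3% held CTTTGT and 27.5% held either, while 1.40% held CTTTGA 2 or more times. RefSeq entries were found for 28 of the 39 genes, and 5 of the 28 windows held a match, those of Axin2, Sfrp5, Fzd7, Wnt8a and Wnt8b. A match describes the letters only.

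At a group mean of 1 FPKM, 13 of the 39 genes were above the line in NC, 19 in CKD and 17 in SZ. The same 13 genes were above it in every group and 20 were above it in none. Under TPM scaling the counts in NC, CKD and SZ were 15, 25 and 20, and with a line of 0.5 FPKM they were 15, 24 and 20. The classes differed in how many genes reached 1 FPKM. Of the 9 frizzled genes, 7 were above 1 FPKM in all 18 libraries, whereas 12 of the 19 ligands never reached 1 FPKM in a single library. Wnt3a, a ligand of the beta-catenin branch, and Wnt8a had no read in any library. Genes were tested where at least 6 of the 18 libraries reached 1 FPKM, which 18 of the 39 passed: 4 ligands, 7 receptors, 5 antagonists and 2 intracellular genes. Dkk3, Sfrp5 and Wnt7a passed without any NC library at 1 FPKM, so the treated groups alone brought them in. Wnt7b had 1 and Tcf7 had 2 NC libraries at 1 FPKM, so the treated groups mainly brought these in.

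In CKD against NC, 15 of the 18 tested genes passed limma's test at an adjusted p under 0.05, 10 of them higher and 5 lower. Of all 13851 genes tested, 50.3% passed, 24.4% higher and 26.0% lower, so passing was common in this comparison. The median log2 fold change was 0.66 over the 18 genes and -0.040 over all genes tested. Dkk3, Sfrp5, Wnt7a, Wnt7b and Tcf7 are among the 10 higher, in this median and among the ranges below that did not overlap. The filter let these genes in only or mainly through the treated groups, so their rise against NC, in CKD or in SZ, is not support. Under TPM scaling or plain totals the split was 12 higher and 3 lower. The log2 fold changes of Wnt7a, Wnt7b, Wnt5b, Fzd6, Fzd2, Tcf7 and Sfrp5 grew by over 1.5 times under TPM scaling, to 1.84, 1.82, 1.15, 1.15, 1.18, 1.27 and 2.67. Ranges did not overlap for 12 of the 39 genes, 10 of them higher in CKD, and for 10 of the 18 tested genes, against 26.5% of all genes tested. In SZ against CKD, 3 of 18 passed (Dkk2, Dkk3 and Sfrp5, all lower), against 11.0% of all genes (4.16% higher and 6.82% lower). Sfrp5 reached 1 FPKM in 5 CKD and 2 SZ libraries, so CKD largely let it in. Its fall in SZ against CKD is not support either. In SZ against NC, 9 of 18 passed, 8 higher and 1 lower, against 21.1% of all genes (12.5% higher and 8.61% lower), or 9 higher and none lower under TPM scaling. Ranges of the 18 overlapped in SZ against CKD without exception (2.26% of all genes did not), and 6 of 18 did not overlap in SZ against NC (14.6% of all genes). SZ against CKD and CKD against NC share the CKD libraries, so a fall after a rise is given as values and not as support.

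**Figure D1:**
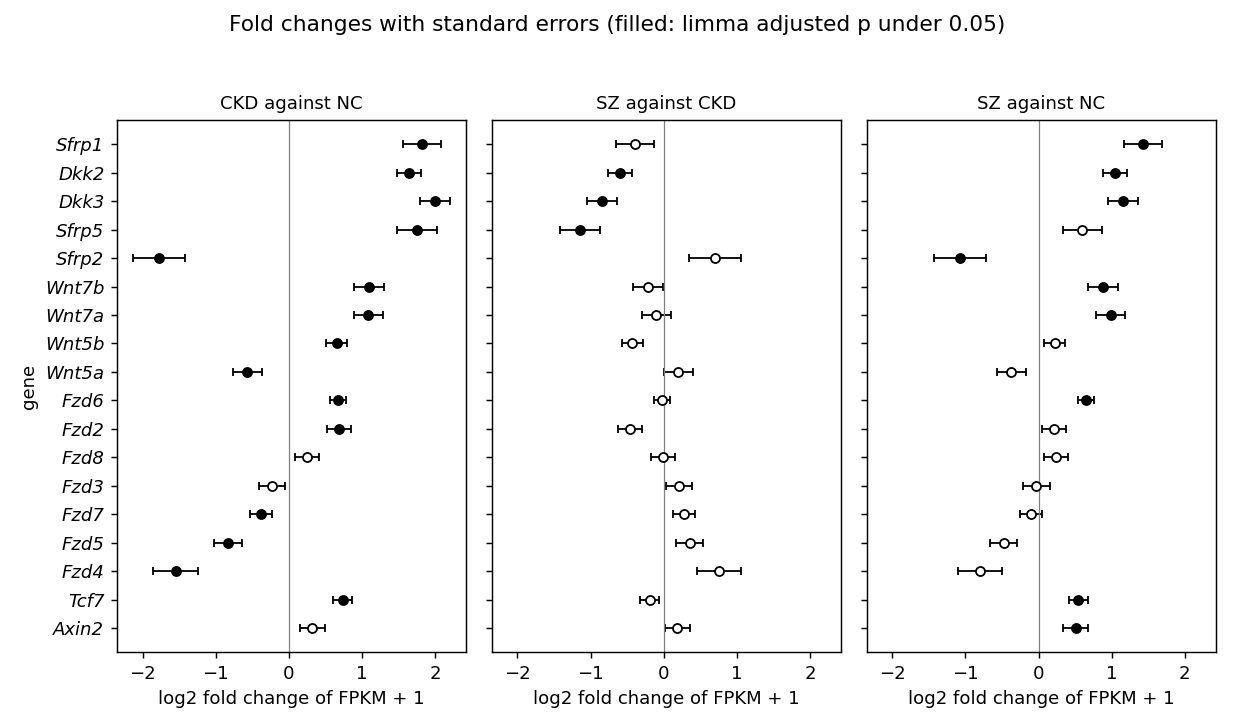
Log2 fold change of FPKM + 1 (x axis) for the 18 tested genes (y axis), with bars of 1 standard error, in the 3 comparisons; filled points passed limma's adjusted p of 0.05. Points to the right are higher in the group named first. In SZ against CKD only Dkk2, Dkk3 and Sfrp5 are filled.

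Among the ligands, Wnt7a, Wnt7b and Wnt5b were higher and Wnt5a was lower in CKD than in NC. In whole kidney, more cells of a type and more RNA per cell cannot be told apart, here and below. Wnt5a, which signals largely without beta-catenin, had the highest mean of the 19 in NC. It ran from 3.22 to 5.99 FPKM in NC (median 4.64), from 1.31 to 4.11 in CKD (median 2.82) and from 2.16 to 4.99 in SZ (median 3.22). The 3 groups overlapped, and CKD 2 was the lowest library. Wnt5a fell in CKD against NC by 0.57 on the log2(FPKM + 1) scale (SE 0.20, limma adjusted p = 0.023). That fall did not pass without CKD 2, CKD 5 and SZ 3 (-0.35, adjusted p = 0.14) or under TPM scaling (-0.25, adjusted p = 0.44). It also failed to pass with plain totals (-0.30, adjusted p = 0.25) and with a correction for gene length (-0.45, adjusted p = 0.061). Nor did it pass when CKD 2, CKD 6 or NC 5 was left out alone (adjusted p 0.060, 0.052 and 0.055).

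Wnt7b, a ligand of the collecting duct known to use beta-catenin, ran from 0.0795 to 1.06 FPKM in NC (median 0.195) and from 1.14 to 2.84 in CKD (median 1.91). Every CKD library was above every NC library, and NC 1 was the highest control. The mean of Wnt7b was 5.18-fold higher in CKD than in NC. Its log2 fold change of FPKM + 1 was 1.10 (SE 0.20, limma adjusted p = 0.00024). In SZ it ran from 0.719 to 3.01 FPKM (median 1.45), which spanned the CKD range. SZ differed from CKD by -0.21 (adjusted p = 0.50), or -0.38 (adjusted p = 0.26) without the 3 libraries, and stayed above NC by 0.89 (adjusted p = 0.0049). Wnt7b has its gene at chr7:116634814-116679581 on the minus strand of mRatBN7.2, the build of the deposited files.

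Wnt7a, its close relative at chr4:123863108-123908981, ran from 0 to 0.276 FPKM in NC (median 0.0742), from 0.619 to 2.13 in CKD (median 1.46) and from 0.622 to 2.19 in SZ (median 0.999). No treated library came down to the NC range. The NC values rest on 29 reads over 6 libraries, against 522 in CKD and 425 in SZ. Wnt7a rose by 1.09 in CKD against NC (SE 0.20, limma adjusted p = 0.00023) and was 0.99 higher in SZ than in NC (adjusted p = 0.0019). The SZ value was 0.10 below that of CKD on the same scale (SE 0.20, log2 fold change -0.10, adjusted p = 0.77). Of 11 collecting duct markers tested, 8 were lower in CKD than in NC and none was higher. Their summed level was 343 to 715 FPKM in NC, 171 to 593 in CKD and 217 to 434.5 in SZ, with no marker at 0 in a group. Markers of other tubule segments were mostly lower in CKD too: 11 of 12 proximal tubule markers, and 8 of 9 of loop and distal tubule, with 1 higher. The part of the collecting duct or other tubule cells in the Wnt7a and Wnt7b values was not tested.

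Wnt5b, a close relative of Wnt5a, averaged 1.69 ± 0.569 FPKM in NC, 3.17 ± 0.443 in CKD and 2.13 ± 0.601 in SZ (SD, n = 6 each). It rose by 0.65 in CKD against NC (SE 0.15, limma adjusted p = 0.0012), with NC 2 at 2.68 inside the CKD range. SZ lay below CKD by 0.43 on average (log2 fold change -0.43, adjusted p = 0.061), and that difference passed when CKD 1, NC 2 or SZ 3 was left out (adjusted p 0.031, 0.046 and 0.025). Within each library, Wnt5a made up 42.5% to 61.6% of the summed FPKM of the 19 ligands in NC, 13.1% to 35.0% in CKD and 25.1% to 38.0% in SZ. Wnt7a and Wnt7b together made up 1.35% to 11.8% in NC, 15.8% to 30.6% in CKD and 17.5% to 29.3% in SZ. These shares do not depend on how libraries were scaled, and on both measures NC stood apart from the treated groups. The ligands were picked by their levels in these same libraries, so the shares are given as values and not as further support.

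The other 15 ligands were not tested, since fewer than 6 libraries reached 1 FPKM. Wnt2 was at a mean of 0.402 FPKM in NC, 0.662 in CKD and 0.926 in SZ, and Wnt2b at 0.376, 0.838 and 0.382. Wnt4, the ligand of nephron formation, averaged 0.234, 0.672 and 0.420 FPKM. Wnt9b, the ureteric bud signal of the embryonic kidney, was at or below 0.30 FPKM in every library. In a fit with no filter, over 23814 genes of which 34.0% passed in CKD against NC, Wnt2b (0.42, limma adjusted p = 0.0095), Wnt10a (0.53, adjusted p = 0.0051) and Wnt11 (0.37, adjusted p = 0.0007) were higher in CKD.

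Wnt11, known from the ureteric tip, ran from 0 to 0.108 FPKM in NC, from 0.119 to 0.542 in CKD and from 0 to 0.186 in SZ. It rests on 5, 101 and 24 reads. The lowest CKD library stood just above the highest NC library, while SZ overlapped both. In the fit without a filter SZ was lower than CKD by 0.28 (log2 fold change -0.28, limma adjusted p = 0.036), where 4.61% of all genes passed.

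Wnt6 and Wnt10a are neighbours on chromosome 9 (chr9:76329882-76343523 and chr9:76349931-76362400, both plus strand, 6407 bases apart), and both were close to absent in NC. Wnt6 had 3 reads over the 6 NC libraries, 58 in CKD and 45 in SZ. Its scaled CKD to NC ratio was 15.2, with an exact 95% interval of 4.95 to 75.8 that covers counting error only. In the fit with no filter Wnt6 did not pass in CKD against NC (0.27, limma adjusted p = 0.0503) or in SZ against NC (0.23, adjusted p = 0.17). Wnt10a ran from 0 to 0.452 FPKM in NC, where NC 1 carried nearly all of its 17 reads, from 0.0830 to 0.829 in CKD and from 0.174 to 0.778 in SZ. The other 3 neighbouring pairs, Wnt1 with Wnt10b, Wnt3 with Wnt9b and Wnt3a with Wnt9a, stayed below 0.30 FPKM in all libraries except for Wnt9a. Wnt9a averaged 0.569 FPKM in NC, 0.602 in CKD and 0.607 in SZ.

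**Figure D2:**
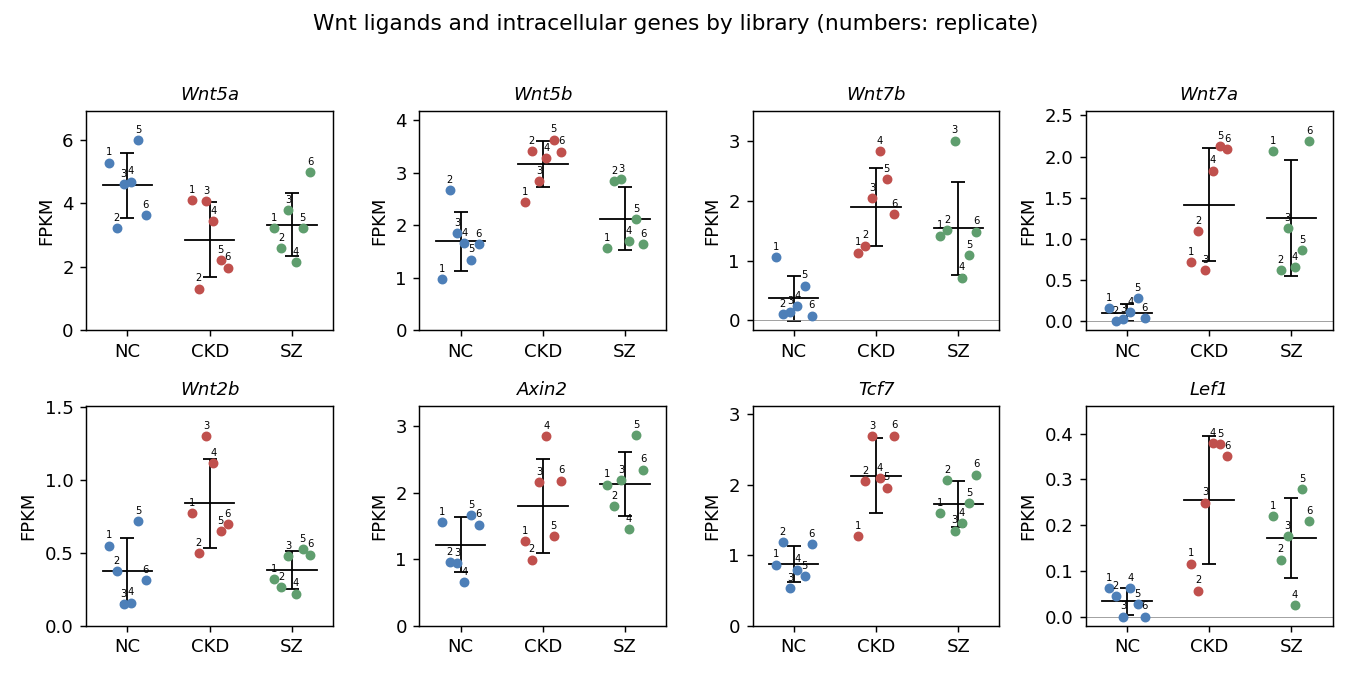
FPKM (y axis, linear) of 5 ligands and the 3 intracellular genes in NC, CKD and SZ; each point is 1 library with its replicate number, long lines are means and bars 1 SD (n = 6). Wnt7a lies between 0 and 0.276 in NC and at 0.619 or above in every CKD library, while Axin2 overlaps between NC and CKD.

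Among the receptors, Fzd4 and Fzd5 were lower in CKD and Fzd6 and Fzd2 were higher. Fzd4, which serves Wnts and also norrin in blood vessels, was the most abundant of the 9 named receptors in all 3 groups. It ran from 23.6 to 42.3 FPKM in NC (median 32.5), from 4.53 to 19.1 in CKD (median 13.6) and from 7.72 to 25.6 in SZ (median 20.8). All CKD libraries were below all NC libraries. The mean was 2.83-fold lower, and the log2 fold change was -1.55 (SE 0.30, limma adjusted p = 0.00036). The lowest values, 4.53, 5.32 and 7.72 FPKM, belonged to CKD 2, CKD 5 and SZ 3, the libraries that stood apart by gene length. Without them the log2 fold change of Fzd4 was -1.08 (adjusted p = 2.6e-05).

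Fzd4 in SZ was above CKD by 0.75 with all libraries (SE 0.30, limma adjusted p = 0.11), and by 0.98 without SZ 3 (adjusted p = 0.019). It also passed without CKD 1 (adjusted p = 0.039). Without the 3 libraries the difference was 0.51 (adjusted p = 0.042). SZ against NC gave -0.80 (adjusted p = 0.068) with all libraries and -0.57 (adjusted p = 0.0061) without the 3, and it passed when CKD 2 or CKD 5 was left out alone (adjusted p 0.042 and 0.047). Endothelial cells are known to express Fzd4. Of 9 endothelial markers tested, 4 were lower in CKD than in NC and none was higher, with a summed level of 168 to 222 FPKM in NC, 145 to 188 in CKD and 149 to 189 in SZ and no marker at 0. Of 7 podocyte markers 6 were lower and 1 higher, with a sum that went from 165 to 283 FPKM in NC to 87.2 to 166 in CKD, again with none at 0. The part of these cells in the Fzd4 values was not tested.

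Fzd5, a receptor for Wnts of the beta-catenin branch, ran from 3.23 to 7.16 FPKM in NC (median 5.59), from 1.55 to 3.09 in CKD (median 2.43) and from 1.53 to 4.08 in SZ (median 3.74). The NC and CKD ranges did not overlap. It fell by 0.83 in CKD against NC (SE 0.19, limma adjusted p = 0.0011), or by 0.54 under TPM scaling (adjusted p = 0.046). SZ against CKD gave 0.35 (adjusted p = 0.21), or 0.51 (adjusted p = 0.030) without SZ 3. SZ against NC gave -0.48 (adjusted p = 0.075), or -0.58 (adjusted p = 0.038) without NC 5. With the correction for gene length it was -0.43 (adjusted p = 0.037), and without the 3 libraries -0.32 (adjusted p = 0.11). Fzd7 averaged 2.76 ± 0.728 FPKM in NC, 1.87 ± 0.473 in CKD and 2.47 ± 0.565 in SZ (SD, n = 6 each). Its fall of 0.38 (SE 0.15, limma adjusted p = 0.042) did not pass in 17 of the alternatives tried, TPM scaling among them (-0.073, adjusted p = 0.79), nor without the 3 libraries (-0.24, adjusted p = 0.17). Leaving out CKD 1, CKD 2, CKD 5, SZ 2 or any of NC 1 to NC 4 alone was enough to end it.

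Fzd6, a receptor of the planar polarity branch, ran from 3.21 to 4.71 FPKM in NC (median 3.89), from 5.05 to 8.64 in CKD (median 6.84) and from 6.19 to 7.42 in SZ (median 6.43). Both treated groups lay wholly above NC. It rose by 0.67 in CKD (SE 0.11, limma adjusted p = 4.5e-05) and was 0.65 higher in SZ than in NC (adjusted p = 0.00026). SZ and CKD differed by -0.022 (SE 0.11, adjusted p = 0.91). Fzd2 averaged 2.26 ± 0.444 FPKM in NC, 4.33 ± 1.26 in CKD and 2.82 ± 0.723 in SZ (SD, n = 6 each). It rose by 0.68 in CKD (SE 0.16, limma adjusted p = 0.0020), with CKD 1 at 2.42 inside the NC range, and SZ against CKD gave -0.47 (adjusted p = 0.069), or -0.59 (adjusted p = 0.010) without CKD 1. The SZ against CKD difference passed with plain totals (-0.58, adjusted p = 0.034), TPM scaling (-0.67, adjusted p = 0.043) and the gene length correction (-0.50, adjusted p = 0.044). Without the 3 libraries it did not (-0.39, adjusted p = 0.21).

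Fzd8 and Fzd3 did not pass in CKD against NC. Fzd8 averaged 3.08 FPKM in NC, 3.78 in CKD and 3.75 in SZ (log2 fold change 0.24, limma adjusted p = 0.21), but under TPM scaling it was 0.68 higher in CKD (adjusted p = 0.0086), and without NC 1 it passed at 0.37 (adjusted p = 0.045). Fzd3 averaged 2.74, 2.25 and 2.68 FPKM (log2 fold change -0.24, adjusted p = 0.28). Fzd9 and Fzd10 stayed below 0.38 FPKM in every library. Within a library, Fzd4 took 56.9% to 69.9% of the summed FPKM of the 9 receptors in NC, 18.1% to 52.5% in CKD and 30.8% to 54.7% in SZ. The Fzd6 to Fzd4 ratio was 0.0854 to 0.144 in NC, 0.265 to 1.497 in CKD and 0.258 to 0.813 in SZ. This ratio does not depend on scaling, and no treated library reached the NC range. It pairs a gene higher in CKD with one lower in CKD, so the separation is given as values and not as further support. A further receptor, Fzd1, is listed only under its Ensembl identifier and so falls outside the rule. By its identifier it averaged 67.7 ± 10.5 FPKM in NC, 56.9 ± 28.1 in CKD and 59.7 ± 16.0 in SZ (SD, n = 6 each), above Fzd4 in each group, and CKD against NC gave -0.43 (limma adjusted p = 0.26). With Fzd1 counted in, Fzd4 took 18.5% to 34.0% in NC, 6.98% to 23.8% in CKD and 13.2% to 24.9% in SZ, ranges that overlap.

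**Figure D3:**
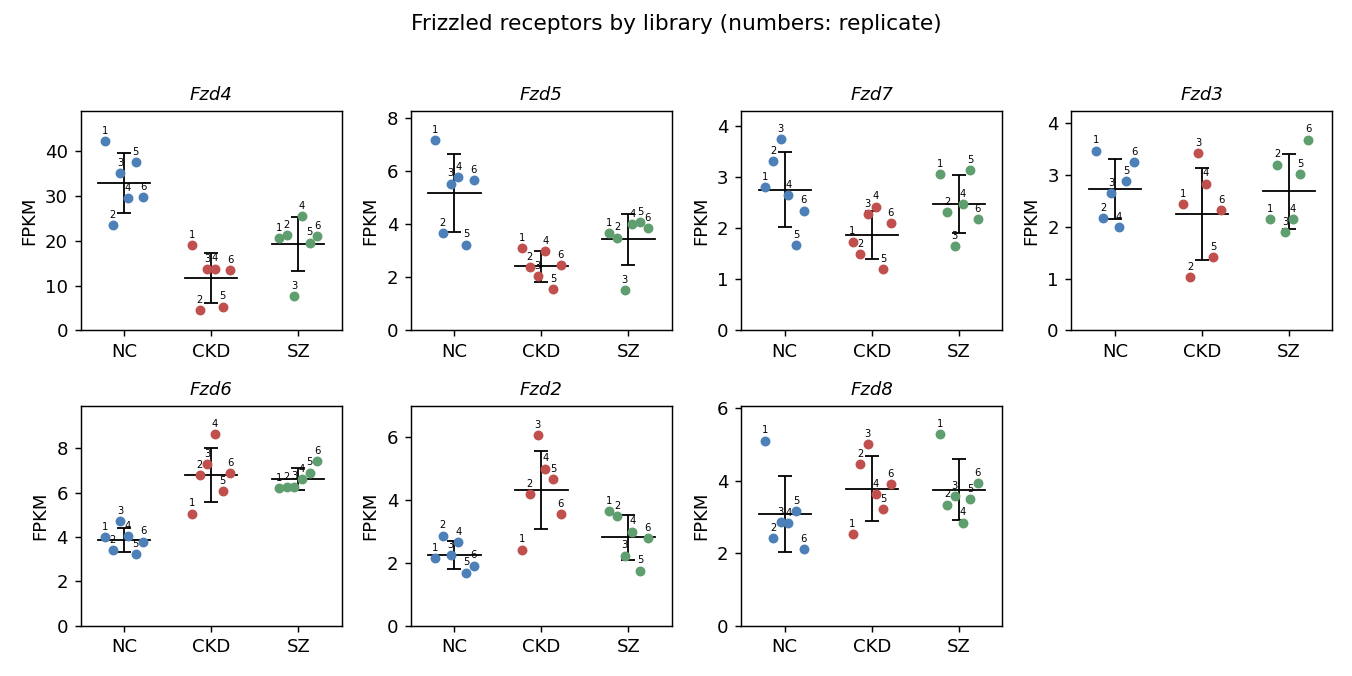
FPKM (y axis, linear) of the 7 tested frizzled genes in NC, CKD and SZ; each point is 1 library with its replicate number, long lines are means and bars 1 SD (n = 6). Fzd4 lies at 23.6 or above in NC and at 19.1 or below in CKD, while Fzd6 is higher in both treated groups than in any NC library.

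Among the secreted antagonists, all 5 tested passed in CKD against NC: Sfrp1, Dkk2, Dkk3 and Sfrp5 were higher and Sfrp2 was lower. Sfrp1, which binds Wnts through a frizzled-like domain, ran from 3.17 to 17.3 FPKM in NC (median 9.12), from 20.3 to 49.8 in CKD (median 36.7) and from 22.7 to 29.8 in SZ (median 25.5). NC 2 was the highest control, and both treated groups lay wholly above it. The mean was 3.56-fold higher in CKD than in NC, and Sfrp1 rose by 1.82 on the log2(FPKM + 1) scale (SE 0.26, limma adjusted p = 1.7e-05). SZ was higher than NC by 1.42 (adjusted p = 0.00074), and SZ against CKD gave -0.39 (adjusted p = 0.33), or -0.20 (adjusted p = 0.71) without the 3 libraries, with the SZ range inside that of CKD. Sfrp1 lies at chr16:68575763-68614286, minus strand.

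Sfrp2, a close relative of Sfrp1 at chr2:169089517-169097063, went the other way. It ran from 6.36 to 21.9 FPKM in NC (median 14.0), from 1.46 to 6.93 in CKD (median 2.89) and from 1.83 to 10.01 in SZ (median 6.27). Only CKD 2, at 6.93, reached the NC range, through NC 5 at 6.36. Sfrp2 fell by 1.78 in CKD against NC (SE 0.35, limma adjusted p = 0.00042), and its mean was 4.26-fold lower. SZ against CKD gave 0.70 (adjusted p = 0.19), or 0.95 (adjusted p = 0.047) without SZ 3. SZ against NC gave -1.07 (adjusted p = 0.037), which did not pass in 12 alternatives, where the adjusted p ran up to 0.11. Leaving out NC 2, NC 3, NC 4, NC 6, SZ 1, SZ 3 or SZ 6 alone was enough to end it.

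Set against each other in the same library, Sfrp1 stood higher relative to Sfrp2 in both treated groups than in NC. Sfrp1 was already above Sfrp2 in NC 5 (8.22 against 6.36 FPKM) and NC 6 (12.7 against 11.1 FPKM). The Sfrp1 to Sfrp2 ratio was 0.433 to 1.29 in NC (median 0.657), 5.17 to 34.2 in CKD (median 13.3) and 2.57 to 12.4 in SZ (median 4.55). NC did not overlap with either treated group, and the SZ and CKD ranges overlapped. Since the ratio pairs a gene higher in CKD with one lower in CKD, the separation is given as values and not as further support. Sfrp2 made up 31.7% to 56.3% of the summed FPKM of the 8 antagonists in NC, 1.54% to 9.58% in CKD and 4.59% to 19.2% in SZ. The sum itself was 16.5 to 50.5 FPKM in NC, 45.3 to 94.5 in CKD and 39.99 to 54.6 in SZ. Frzb, a relative of the Sfrp genes outside the naming rule, is not in this sum. Its mean in NC, given below, was close to that of Sfrp2, and shares with Frzb counted in were not computed.

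Dkk2, which acts on Lrp5 and Lrp6, ran from 4.31 to 9.22 FPKM in NC (median 6.0), from 15.2 to 27.8 in CKD (median 21.0) and from 11.1 to 16.2 in SZ (median 13.6). The 3 groups were nearly in separate bands, with 1 overlap, between CKD 1 at 15.2 and SZ 1 at 16.2. Dkk2 rose by 1.64 in CKD against NC (SE 0.16, limma adjusted p = 3.3e-07). In SZ it was lower than in CKD by 0.60 (log2 fold change -0.60, SE 0.16, adjusted p = 0.027) and higher than in NC by 1.04 (adjusted p = 0.00021). The SZ against CKD difference did not pass without the 3 libraries (-0.51, adjusted p = 0.076), nor when CKD 4, CKD 5, SZ 4 or SZ 5 was left out alone (adjusted p 0.050 to 0.073), nor with the replicate number as a block (adjusted p = 0.061). By the rank sum test its adjusted p was 0.10, but that test passed no gene at all in this comparison.

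Dkk3, a divergent member of the family that does not act as the others do on Lrp5 and Lrp6 and is known as a product of stressed tubules, ran from 0.123 to 0.886 FPKM in NC (median 0.361). It ran from 2.41 to 7.19 FPKM in CKD (median 4.98) and from 1.13 to 2.505 in SZ (median 2.28). SZ lay between the other groups, and only SZ 5 at 2.505 passed the lowest CKD library. The mean was 12.02-fold higher in CKD than in NC. On the log2(FPKM + 1) scale, which understates the change of a gene this low in NC, Dkk3 rose by 2.0 (SE 0.20, limma adjusted p = 4.3e-07). SZ was lower than CKD by 0.84 (log2 fold change -0.84, SE 0.20, adjusted p = 0.017), or 0.74 without SZ 4 (-0.74, adjusted p = 0.051). It was higher than NC by 1.15 (adjusted p = 0.0006).

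Sfrp5, a frizzled-like antagonist best known from fat tissue, had 9 reads over the 6 NC libraries and ran from 0 to 0.101 FPKM there. In CKD it ran from 0.925 to 6.66 FPKM (median 2.42), with CKD 2 the highest, and in SZ from 0.0974 to 1.17 (median 0.676). CKD stood wholly above NC, and 2 SZ libraries, SZ 1 and SZ 6, lay near the NC values. The log2 fold change was 1.74 in CKD against NC (SE 0.27, limma adjusted p = 4.3e-05) and -1.14 in SZ against CKD (SE 0.27, adjusted p = 0.016). In a fit of the SZ and CKD libraries alone, the latter had an adjusted p of 0.058. SZ against NC gave 0.60 (adjusted p = 0.13). It passed in 5 alternatives: a pseudocount of 0.1 in place of 1 (2.05, adjusted p = 0.011), TPM scaling (1.03, adjusted p = 0.034), array weights, a fit of these groups alone and the exact rank sum test (adjusted p 0.020 to 0.023 in the last 3).

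Sfrp4, at chr17:45234097-45330736, reached 1 FPKM in 5 libraries and so was not tested. It had 1 read in all of NC, 1197 reads in CKD and 231 in SZ. It ran from 0.593 to 4.47 FPKM in CKD (median 1.44) and from 0.0807 to 1.05 in SZ (median 0.322). Every treated library was above every NC library. The scaled ratio to NC was 941 in CKD (exact 95% interval 169 to 37198) and 196 in SZ (34.9 to 7794), and these intervals cover counting error only. In the fit with no filter it was higher in CKD than in NC (1.46, limma adjusted p = 0.00034) and lower in SZ than in CKD (-0.98, adjusted p = 0.041). In that fit SZ against NC did not pass (0.48, adjusted p = 0.27).

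Wif1, a direct Wnt-binding inhibitor, averaged 0.481 ± 0.133 FPKM in NC, 0.460 ± 0.152 in CKD and 0.203 ± 0.108 in SZ (SD, n = 6 each). It was thus lowest in SZ, as was the untested Dkk4 but no tested antagonist. In the fit with no filter it was lower in SZ than in CKD (-0.28, limma adjusted p = 0.049) and than in NC (-0.30, adjusted p = 0.017, where 12.2% of all genes passed). It rests on 109, 129 and 54 reads. Dkk4 stayed below 0.68 FPKM in all libraries and averaged 0.211 FPKM in NC, 0.350 in CKD and 0.153 in SZ. Dkk1, which is listed under a placeholder name, averaged 0.0623, 0.0881 and 0.129 FPKM by its identifier and was not tested.

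Fibroblast and mural cell markers were mostly higher in CKD, the direction of Sfrp1, Dkk2, Dkk3 and Sfrp5 but not of Sfrp2. Of 13 tested, 10 were higher and 1 lower in CKD than in NC, with a summed level of 126 to 267 FPKM in NC, 502 to 1261 in CKD and 284 to 581 in SZ. In SZ against CKD 4 were lower, and no marker was at 0 in a group. Macrophage markers were higher in CKD for 12 of 12 (summed 114 to 218 FPKM in NC, 1172 to 2580 in CKD and 462 to 1078 in SZ), and 11 were lower in SZ than in CKD, none at 0. The part of these cells in the Sfrp and Dkk values was not tested. Urothelial markers, of cells from the renal pelvis, were at 0.819 FPKM or less in sum in every library.

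**Figure D4:**
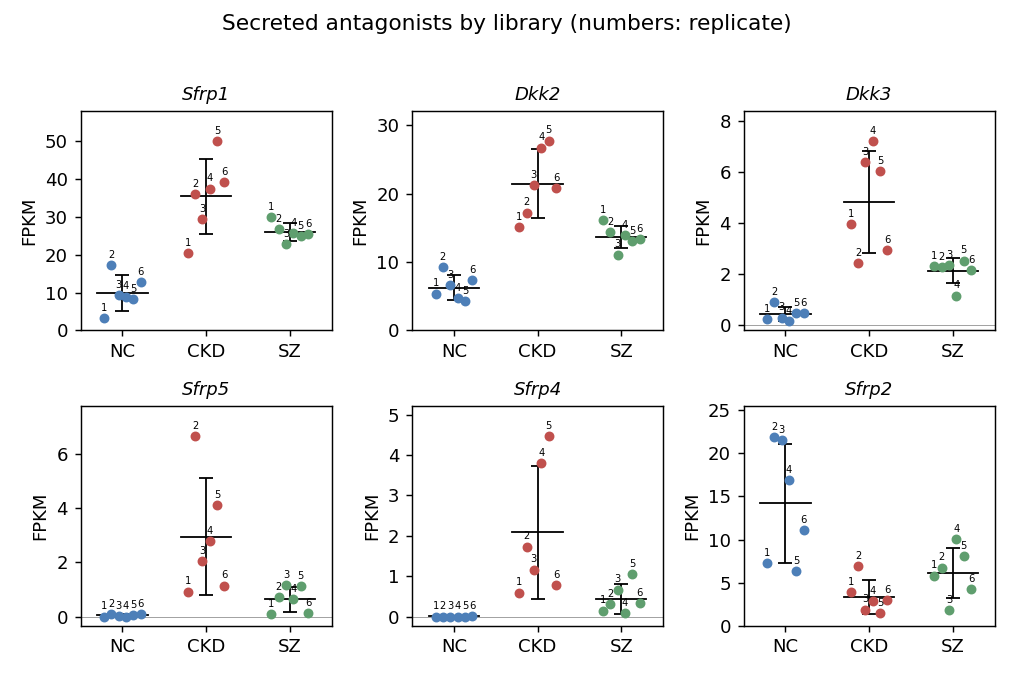
FPKM (y axis, linear) of 6 secreted antagonists in NC, CKD and SZ; each point is 1 library with its replicate number, long lines are means and bars 1 SD (n = 6). Dkk2 forms 3 nearly separate bands, at 4.31 to 9.22, 15.2 to 27.8 and 11.1 to 16.2. Sfrp2 has a lower mean in both treated groups than in NC, and both overlap the NC range.

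The intracellular genes read out or carry the beta-catenin signal. Axin2, whose window with 2 CTTTGA matches is printed above, ran from 0.657 to 1.66 FPKM in NC (median 1.24), from 0.994 to 2.85 in CKD (median 1.75) and from 1.45 to 2.87 in SZ (median 2.15). All 3 groups overlapped, and SZ had the highest mean. CKD against NC gave 0.32 (SE 0.17, limma adjusted p = 0.12), which became 0.75 (adjusted p = 0.021) under TPM scaling, 0.53 (adjusted p = 0.024) with plain totals, 0.50 (adjusted p = 0.013) with array weights and 0.49 (adjusted p = 0.029) without the 3 libraries, or 0.048 as the adjusted p without CKD 2 alone. SZ against NC gave 0.51 (SE 0.17, adjusted p = 0.039), which did not pass in 10 alternatives (adjusted p 0.054 to 0.094), among them no filter, the rank sum test, the replicate block and leaving out NC 2, NC 3, NC 4, SZ 1, SZ 3, SZ 5 or SZ 6 alone. SZ against CKD gave 0.18 (adjusted p = 0.48), or 0.0097 (adjusted p = 0.98) without the 3 libraries.

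Tcf7, which encodes TCF1, a factor of T cells as well as of the Wnt pathway, ran from 0.531 to 1.18 FPKM in NC (median 0.830), from 1.27 to 2.69 in CKD (median 2.07) and from 1.35 to 2.14 in SZ (median 1.66). Both treated groups lay wholly above NC. Tcf7 rose by 0.73 in CKD (SE 0.13, limma adjusted p = 0.00016) and was 0.54 higher in SZ than in NC (adjusted p = 0.0063). SZ against CKD gave -0.19 (adjusted p = 0.35). Lef1, its relative, stayed below 0.38 FPKM in every library and rests on 13 reads in NC, 135 in CKD and 82 in SZ. It averaged 0.0331, 0.255 and 0.172 FPKM, and in the fit with no filter it was 0.27 higher in CKD than in NC (limma adjusted p = 0.0036).

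T cell markers moved in the same direction as Tcf7. All 10 tested were higher in CKD than in NC, 9 were higher in SZ than in NC, and 4 were lower in SZ than in CKD. Their summed level was 5.77 to 10.05 FPKM in NC, 22.2 to 51.9 in CKD and 18.3 to 29.9 in SZ, with no marker at 0 in a group. The part of T cells in the Tcf7 and Lef1 values was not tested.

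Other genes of the pathway were taken from 7 lists. Members outside the naming rule were named after their values were seen, and each count can be read against 24.4% of all genes higher and 26.0% lower in CKD against NC. Some list genes met the filter only through the treated groups, Mmp7, Cthrc1 and Nkd1 among them. Their rise against NC is not support, though they are in the counts and medians below. Among co-receptors and secretion genes, 5 of 9 tested rose and none fell in CKD. Ptk7, a polarity co-receptor, rose by 0.89 (SE 0.14, limma adjusted p = 3.8e-05), and Gpc3, a glypican, by 0.65 (SE 0.18, adjusted p = 0.0062). Porcn (0.61) and Wls (0.59), which acylate and export Wnts, and the Wnt5a receptor Ror2 (0.57) were the other 3. The co-receptors Lrp5 (11.9, 10.03 and 9.23 FPKM in NC, CKD and SZ) and Lrp6 (10.98, 6.69 and 9.67) did not pass in CKD against NC (-0.28, adjusted p = 0.15, and -0.88, adjusted p = 0.067). Ror2 alone of the 9 passed in SZ against CKD, and was lower in SZ (-0.68, adjusted p = 0.044). The median log2 fold change of the list was 0.57 in CKD against NC.

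Of 7 other secreted regulators tested, 3 rose in CKD and none fell (Cthrc1, Frzb and Tinagl1, median over the 7 of 0.49), and Cthrc1 and Tinagl1 were lower in SZ than in CKD. Cthrc1, a matrix protein that favours Wnt signalling through Ror2, averaged 0.126 ± 0.104 FPKM in NC, 13.6 ± 6.04 in CKD and 3.46 ± 2.39 in SZ (SD, n = 6 each). It rose by 3.60 (SE 0.31, limma adjusted p = 6.8e-08) and was lower in SZ than in CKD (-1.78, adjusted p = 0.0036). Frzb, a relative of the Sfrp genes, averaged 13.7 ± 5.05 FPKM in NC, 27.8 ± 5.16 in CKD and 21.0 ± 2.58 in SZ and rose by 1.02 in CKD (SE 0.18, adjusted p = 0.00012). Of the R-spondin arm, which keeps frizzled receptors at the surface, 1 of 4 tested rose and 1 fell (median -0.40). Rspo1, an R-spondin, averaged 0.309 FPKM in NC, 2.06 in CKD and 0.932 in SZ (1.14, adjusted p = 0.00025 in CKD against NC). Znrf3, a ligase that removes frizzled receptors, fell by 0.82 (SE 0.25, adjusted p = 0.012), and Rspo3 was at 0.218, 0.134 and 0.141 FPKM.

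Of 17 tested destruction complex and relay genes 4 rose in CKD (Nkd1, Dact3, Csnk1e and Dvl2) and 2 fell (Apc and Btrc), with a median of -0.12. Ctnnb1, which encodes beta-catenin, averaged 119.6 ± 5.21 FPKM in NC, 140.3 ± 22.9 in CKD and 137.0 ± 10.2 in SZ (SD, n = 6 each) and did not pass (0.21, limma adjusted p = 0.094). The feedback inhibitor Nkd1, which binds Dishevelled, rose from 0.276 ± 0.123 to 2.16 ± 0.582 FPKM and was at 1.76 ± 0.634 in SZ (1.29, SE 0.16, adjusted p = 3.2e-06 in CKD against NC and 1.08, adjusted p = 0.0001 in SZ against NC). Dact3, another Dishevelled antagonist, rose by 1.10 (SE 0.21, adjusted p = 0.00025) and was lower in SZ than in CKD (-0.76, adjusted p = 0.026). Of 13 nuclear partners 4 rose (Ctnnbip1, Tle3, Hdac1 and Pygo2) and 2 fell (Ep300 and Tle4), with a median of -0.095 and with Ctnnbip1, an inhibitor of the beta-catenin and TCF contact, 0.61 higher (adjusted p = 0.0010) and the co-repressor Tle3 0.61 higher (adjusted p = 0.0017). Of 15 planar polarity genes 1 rose (Rac1) and 4 fell (Daam2, Celsr2, Invs and Mapk8), with a median of 0.039. Daam2, a formin that binds Dishevelled, fell by 0.71 (adjusted p = 0.0037) and the cadherin Celsr2 by 0.61 (adjusted p = 0.014).

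Genes reported elsewhere as Wnt and beta-catenin targets gave 10 higher and 1 lower of 16 tested in CKD against NC, with a median of 0.97, and 6 lower and none higher in SZ against CKD, where 6.82% of all genes were lower and 4.16% higher. Mmp7, a matrix metalloproteinase of injured tubule, had no read in any NC library and averaged 13.3 ± 10.1 FPKM in CKD and 3.005 ± 1.82 in SZ (SD, n = 6 each). It passed in both comparisons (limma adjusted p = 1.0e-06 and 0.015), and no fold is given against a group at 0. The filter let Mmp7 in only through the treated groups, so its pass against NC is not support. Cd44, an adhesion receptor also present on immune cells, rose by 3.44 (SE 0.20, adjusted p = 1.7e-09) and was lower in SZ than in CKD (-0.84, adjusted p = 0.016). Myc rose by 1.55 (SE 0.29, adjusted p = 0.00022), while Ccnd1, another commonly named target, averaged 30.5, 34.8 and 37.0 FPKM and did not pass (0.22, adjusted p = 0.29). Tnfrsf11b, a decoy receptor for a bone resorption signal, was the 1 target that fell (-2.35, adjusted p = 0.00011). Many of these genes are also known to respond to inflammation and matrix change, and the macrophage and fibroblast marker lists moved in the same directions. Their part in these values was not tested.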

How the data were processed

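RNA from kidney (Trizol extraction, an Illumina TruSeq RNA kit, per the labels' protocols) was measured in 18 libraries. The authors deposited FPKM values for 32116 genes. HISAT2 2.0.5 and the build mRatBN7.2 are named per the submitters' processing notes; the counting program, its use of strand and the annotation release are unknown (not given in the sources used here), so reads of overlapping or antisense genes may be mixed. FPKM times gene length gave whole multiples of 1 step per library for 100% of values (tolerance 0.01), which gave the reads; voom on these reads called 15, 3 and 9 of the genes in the 3 comparisons, and 6842, 1517 and 2719 of all genes.

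Genes at 1 FPKM or more in at least 6 libraries were put to limma 3.58.1 (R 4.3.3) on log2(FPKM + 1), 1 fit of 3 group means over 18 libraries with an intensity trend, 2-sided, Benjamini-Hochberg adjusted over 13851 genes per comparison. Fold changes on this scale understate the change of low genes. The script was tested on simulated data. Genes, lists and tests were chosen with earlier results of these data known. Values were given in full for genes that passed in CKD against NC or SZ against CKD, for Axin2, Tcf7 and Lef1 and for the highest gene of each class; from each pathway list the 2 genes with the largest change among those that passed in CKD against NC, the 1 in SZ against CKD, and 9 genes named whatever their values. Ratios of low read counts have exact 95% intervals. Promoters come from RefSeq (GRCr8). Alternatives were the pseudocount, filter, scaling, variance model, weights, test, length correction, replicate block and libraries left out.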

Additional observations from a re-analysis of the deposited data

Results flagged for a closer look

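Of 60 gene and group sets of 6 libraries, 6 held a library far from the other 5 by Dixon's rule, which chance does in about 1 set in 20. Library SZ 3 was the one far from the others 3 times. It had the lowest Fzd4 of the SZ group at 7.72 FPKM (the next library was at 19.6), the lowest Fzd5 at 1.53 FPKM (next 3.49) and the highest Wnt7b at 3.01 FPKM (next 1.52). SZ 3 is also one of the 3 libraries whose values followed gene length most. SZ 4 had the lowest Dkk3 of its group at 1.13 FPKM (next 2.14). NC 1 had the highest Fzd8 of the controls at 5.10 FPKM (next 3.15). NC 6 was the only control with a read of Sfrp4, at 0.0130 FPKM, which is 1 read.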

How the results depend on the processing

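Of the 15 genes that passed in CKD against NC, 13 kept direction and side of the threshold in every alternative in which they could be fitted; the exceptions were Wnt5a and Fzd7. Of the 9 that passed in SZ against NC, 7 did, the exceptions being Axin2 and Sfrp2. None of the 3 that passed in SZ against CKD did. The count of genes passing in CKD against NC was 14 to 15 with 1 library left out and 5 with a mean FPKM of at least 5 (fewer genes tested). In SZ against CKD it was 7 with array weights, 6 with no filter, 5 with plain totals, 5 with TPM scaling, 1 with a mean FPKM of at least 5 and 0 by the exact rank sum test. That rank sum test passed 0 of all genes (3052 at an unadjusted p under 0.05), while limma had 3 of the 18 genes past its threshold and 6 at an unadjusted p under 0.05. With 1 library left out the SZ against CKD count ran from 1 (without SZ 4) to 7 (without SZ 3), with 6 without CKD 1. In SZ against NC it was 7 to 10 with 1 library left out and 4 with a mean FPKM of at least 5. Fits with the replicate number as a block gave 14, 3 and 8 genes, with Dkk2 lost (adjusted p = 0.061) and Wnt5b gained (0.043) in SZ against CKD, Fzd7 lost in CKD against NC and Axin2 lost in SZ against NC (0.057). Same-numbered libraries correlated from -0.36 to 0.23, and 1, 0 and 1 of 6 correlated best with their own number, so the numbers do not pair them.

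Signs turned only among differences that did not pass. Fzd3 in CKD against NC was 0.011 with plain totals, 0.097 with TPM and 0.013 without CKD 2, CKD 5 and SZ 3. Fzd3 in SZ against NC was 0.047 with array weights, 0.13 with plain totals, 0.067 without the 20 most abundant genes in the scaling, 0.23 with TPM and 0.038 without the 3 libraries, and -0.10 to 0.038 with 1 library left out. Fzd7 in SZ against NC was 0.048 with plain totals and 0.14 with TPM. In SZ against CKD, Wnt5a was -0.056 and Fzd8 0.012 without the 3 libraries, and with 1 library left out Fzd8 ran from -0.092 to 0.063 and Fzd6 from -0.092 to 0.043. Where no value shows a cause, the cause was not tested. Genes with few reads, such as Wnt6 and Lef1, are limited by depth.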
